A study of Mus musculus with 32 samples.

Results

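The genes followed here are St8sia6, Tenm2, Megf6, Chek2 and Gpr165, 5 of the 43035 genes in the deposited tables. They were chosen from these data, for a lower count in fibro-adipogenic progenitors (FAPs) with DUX4 than without it, or for a difference in the DUX4 effect between FAPs and endothelial cells. Their values in the sorted cells are therefore given as a description, with no test, and only whole muscle, which the choice did not use, was tested. In the FAPs, 4 of the 5 genes (St8sia6, Tenm2, Megf6 and Chek2) were at 0 to 5 counts summed over all 4 DUX4 libraries. Gpr165 was not lost from DUX4 FAPs, since its values there overlapped those of the wild type. It enters the choice through the endothelial cells, where it was at 0 in the wild type and above 0 with DUX4.

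The mice carried an inducible gene for DUX4 or were wild type (WT), and all of them, WT included, were given doxycycline in their chow. Sorted cells from hind limb muscle formed 4 groups, with 75000 cells per sample: PDGFRa+ FAPs of WT mice (PDGWT, 3 libraries) and of DUX4 mice (PDGDUX, 4), and CD31+ endothelial cells of WT mice (CD31WT, 3) and of DUX4 mice (CD31DUX, 4). Whole muscle formed the other 4: WT.2Weeks and IDUX.2Weeks (5 libraries each), and WT.16Weeks and IDUX.16Weeks (4 each). The promoter that drives DUX4, the age and sex of the mice, the muscles used for whole-muscle RNA and the time at which the cells were sorted are named in none of the labels. Nothing states that each library came from a separate animal, so p-values measure the spread between these libraries, which may be partly technical.

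DUX4 is a transcription factor of the early embryo whose misexpression in skeletal muscle underlies facioscapulohumeral dystrophy. FAPs are the mesenchymal cells between muscle fibres, marked by the receptor PDGFRa, and are a source of matrix and fat in damaged muscle, while CD31+ endothelial cells line the vessels. St8sia6 is a sialyltransferase of the Golgi, which adds sialic acid to a sialic acid already present on a glycan of the cell surface. Tenm2 is a teneurin, a large transmembrane protein that binds latrophilin receptors on neighbouring cells. Megf6 is a protein with many EGF-like repeats, Chek2 is the checkpoint kinase that ATM activates after DNA breaks, and Gpr165 is an orphan G protein-coupled receptor, one with no agreed ligand.

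Libraries held from 6.07 to 20.7 M estimated counts. PDGWT libraries held 16.55 to 18.94 M counts over 19817 to 20484 genes with a count, and PDGDUX libraries held less, 11.0 to 13.73 M counts over 17742 to 18233 genes. Levels are counts per 1 M (CPM) after scaling by the trimmed mean of M-values (TMM). The identity of the sorts was visible in both genotypes: 15 FAP markers summed to 116204 to 154526 CPM in PDGWT and 148906 to 167325 CPM in PDGDUX, while 14 endothelial markers summed to 338 to 598 CPM and 289 to 381 CPM, against 11921 to 12994 CPM in CD31WT and 7192 to 9035 CPM in CD31DUX. The FAP markers summed to 10079 to 13862 CPM in CD31WT and to 30275 to 35446 CPM in CD31DUX, so FAP transcripts were more abundant in the DUX4 endothelial sort.

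The genes lie on 5 chromosomes of GRCm38. St8sia6 (ENSMUSG00000003418) is at chromosome 2, 13651021 to 13794064, on the minus strand. Tenm2 (ENSMUSG00000049336) is at chromosome 11, 36006656 to 37235964, on the minus strand. Megf6 (ENSMUSG00000057751) is at chromosome 4, 154170730 to 154275713, Chek2 (ENSMUSG00000029521) at chromosome 5, 110839979 to 110874145, and Gpr165 (ENSMUSG00000031210) at chromosome X, 96713441 to 96719388, each on the plus strand. Of their nearest coding neighbours, none that was tested was called in FAPs by edgeR's quasi-likelihood test. Of all 15396 genes tested in whole muscle, edgeR called 1721 higher with DUX4 at 2 weeks and 2169 (14.1%) higher at 16 weeks. Of these neighbours Wwc1, Arhgef16 and Pgr15l were not tested in whole muscle. Of the others it called 5 higher over the 2 times. At 2 weeks they were Wrap73 beside Megf6 (8.45 to 13.1 CPM; adjusted p = 0.0134) and Ttc28 beside Chek2 (36.3 to 53.6 CPM; adjusted p = 0.0126). At 16 weeks they were Vim (adjusted p = 0.0416) and Hacd1 (adjusted p = 0.0489) on the 2 sides of St8sia6, and Heph beside Gpr165 (0.690 to 1.81 CPM; log2 1.43; adjusted p = 0.0391), which thus rose in the same comparison as Gpr165. Vim, the intermediate filament gene beside St8sia6, was at 1281 CPM in PDGWT and 1484 CPM in PDGDUX. Hscb, 201 bases from Chek2 on the opposite strand, was at 2.76 CPM in PDGWT and 2.89 CPM in PDGDUX. A link between the 5 genes and their neighbours was not tested.

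The 250 bases before the RefSeq start (GRCm38.p6) are shown for Megf6, Chek2 and Tenm2, which were at or near 0 in DUX4 FAPs, and for Gpr165, which was not. Capitals mark each match of CCAAT, of the box TATAAA and of the box GGGCGG, searched on both strands, so a match of the first on the other strand appears reversed and complemented. They are printed 5′ to 3′ on the strand of the gene, at chr4:154170463-154170712, chr5:110839733-110839982, chr11:36944242-36944491 and chrX:96713218-96713467.
Megf6: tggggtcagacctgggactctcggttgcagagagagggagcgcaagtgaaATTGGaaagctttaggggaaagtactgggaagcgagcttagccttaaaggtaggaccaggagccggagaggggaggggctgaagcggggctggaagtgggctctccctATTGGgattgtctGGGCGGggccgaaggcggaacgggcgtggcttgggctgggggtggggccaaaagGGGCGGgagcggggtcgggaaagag
Chek2: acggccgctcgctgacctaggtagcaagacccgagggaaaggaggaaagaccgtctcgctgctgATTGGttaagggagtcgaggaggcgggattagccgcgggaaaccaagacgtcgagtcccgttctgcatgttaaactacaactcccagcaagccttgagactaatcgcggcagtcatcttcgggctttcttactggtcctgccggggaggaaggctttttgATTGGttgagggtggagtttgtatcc
Tenm2: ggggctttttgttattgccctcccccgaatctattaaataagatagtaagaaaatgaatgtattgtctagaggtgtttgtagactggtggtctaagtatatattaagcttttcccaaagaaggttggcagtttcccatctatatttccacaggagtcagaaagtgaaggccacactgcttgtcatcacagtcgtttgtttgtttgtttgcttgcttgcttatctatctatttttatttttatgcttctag
Gpr165: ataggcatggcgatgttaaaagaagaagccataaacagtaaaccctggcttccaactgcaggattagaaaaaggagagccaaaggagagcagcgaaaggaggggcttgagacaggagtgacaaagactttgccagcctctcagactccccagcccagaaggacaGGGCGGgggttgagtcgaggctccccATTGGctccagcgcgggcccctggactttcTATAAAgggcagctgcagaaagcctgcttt
The windows differed in composition. Megf6 holds 63.2% G and C, with 2 matches of CCAAT and 2 of GGGCGG, and Chek2 holds 55.6% with 2 matches of CCAAT. Tenm2 holds 37.2% with none of these motifs. Its RefSeq start lies 291723 bases inside the gene as GENCODE draws it. Whether transcription starts there was not tested, so this window may not be a promoter. The window of Gpr165 holds all 3 motifs, with TATAAA from -30 to -25 relative to the start. The window of St8sia6, 70.8% G and C, lies within the first exon of the GENCODE model and is not printed. None of the 5 windows holds the DUX4 motif, TGANTCA or CACGTG. Of the 32851 RefSeq windows of this length, 33.8% hold CCAAT, 32.7% GGGCGG, 12.4% TATAAA, 6.75% TGANTCA, 6.02% CACGTG and 0.155% the DUX4 motif.

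Tenm2 was the most abundant of the 4 lost genes in WT FAPs, per library and per kilobase of exon. It was at 12.4, 9.95 and 12.8 CPM in the PDGWT libraries (201, 147 and 232 counts) and at 0, 0, 0 and 0.0857 CPM in the PDGDUX libraries, where the last value is 1 count. All 4 DUX4 libraries were thus at or under the 3 counts taken here as the floor of a library. The pooled ratio of PDGDUX to PDGWT was 0.0020, with a 95% interval of 5.05e-05 to 0.0112 (exact Clopper-Pearson, which covers counting error only, as do all intervals here).

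St8sia6 was at 6.06, 3.99 and 9.29 CPM in PDGWT (98, 59 and 169 counts) and at 0, 0.214, 0 and 0.257 CPM in PDGDUX (0, 2, 0 and 3 counts). The groups did not overlap, and the pooled count was 56.3-fold lower in PDGDUX (95% interval 23.9 to 174). Megf6 was lower in WT FAPs to begin with, at 1.11, 4.27 and 2.03 CPM (18, 63 and 37 counts), and was at 0, 0.214, 0 and 0 CPM in PDGDUX, where the one value above 0 is 2 counts. The pooled ratio for Megf6 was 0.0196 (95% interval 0.00235 to 0.0725). Chek2 was at 2.66, 2.84 and 0.880 CPM in PDGWT and at 0 in all 4 PDGDUX libraries. With each DUX4 library set at its floor of 3 counts, that would be at least 7.47-fold lower. The estimated counts of Chek2 did not behave as counted reads, as set out below, so this floor may not bound its level.

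Gpr165 differed from these 4. It was at 9.33, 11.9 and 1.32 CPM in PDGWT and at 10.3, 4.38, 3.13 and 0.857 CPM in PDGDUX. The highest DUX4 library lay above 2 of the 3 WT libraries, and the spread within each group was wider than the distance between the group means, 7.52 ± 5.53 CPM (SD, n = 3) and 4.68 ± 4.04 CPM (SD, n = 4). Over all 17008 genes fitted in the sorted cells, 9.13% had DUX4 values in FAPs wholly below the WT values, and 1.77% were called lower at an adjusted p under 0.05 by edgeR's quasi-likelihood test. The 4 lost genes were chosen on this contrast, so these shares are background and not a comparison. In bulk RNA, fewer cells of one kind and less RNA per cell cannot be told apart.

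**Figure D1:**
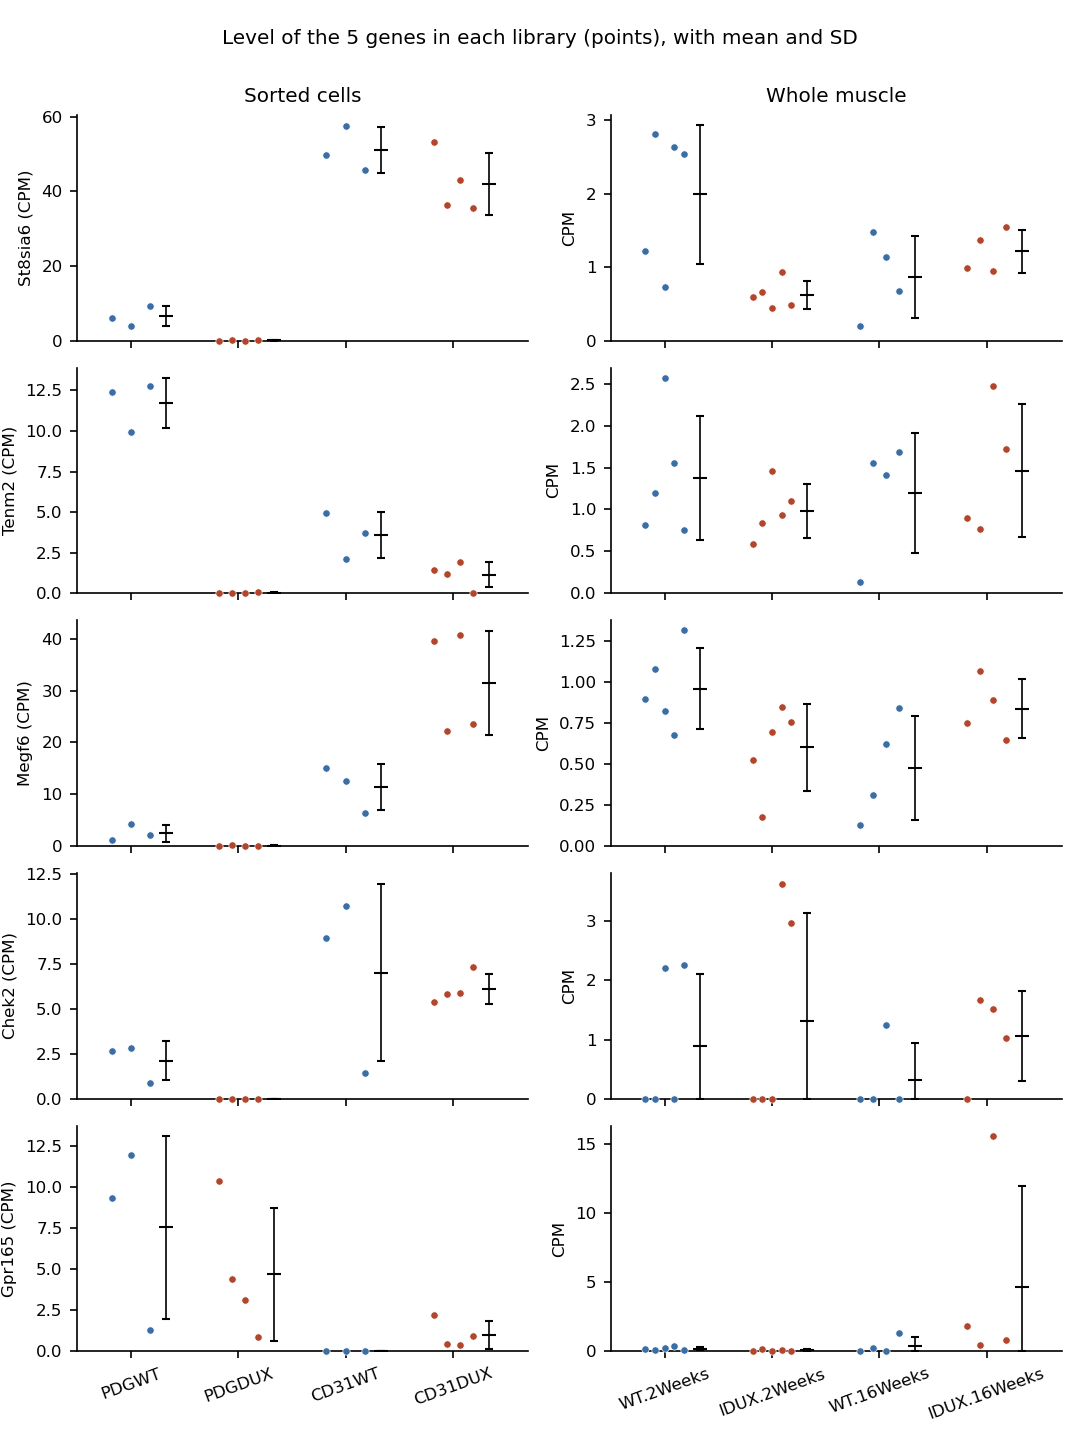
Level of each gene in CPM (vertical axes) in every library of the 8 groups (horizontal axes), blue for WT and red for DUX4, with the mean and SD at the right of each group and the lower end of the SD drawn no further than 0. St8sia6, Tenm2, Megf6 and Chek2 lie at or near 0 in PDGDUX, and Gpr165 does not.

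In endothelial cells with DUX4, St8sia6, Megf6 and Chek2 were all measured, at 98 to 967 counts per library. Of the sorted groups CD31WT had the highest mean of St8sia6. The gene was at 49.8, 57.6 and 45.6 CPM in CD31WT and 53.1, 36.2, 43.0 and 35.4 CPM in CD31DUX. These ranges overlapped, and the pooled ratio of DUX4 to WT was 0.813 (0.773 to 0.856). Megf6 moved the opposite way to its course in FAPs. It was at 15.1, 12.6 and 6.44 CPM in CD31WT and at 39.6, 22.2, 40.8 and 23.5 CPM in CD31DUX, with no overlap and a pooled ratio of 2.70 (2.47 to 2.95). Of all fitted genes, 9.89% lay wholly higher in CD31DUX.

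Tenm2 was lower with DUX4 in the endothelial sort as well. It was at 4.93, 2.13 and 3.72 CPM in CD31WT and at 1.43, 1.21, 1.92 and 0.0435 CPM in CD31DUX, with a pooled ratio of 0.307 (0.236 to 0.396). These ranges did not overlap either, as was so for 8.18% of all fitted genes in this direction. Chek2 was at 8.92, 10.7 and 1.42 CPM in CD31WT and at 5.38, 5.85, 5.87 and 7.32 CPM in CD31DUX, where the DUX4 values fell inside the WT range. Gpr165 was at 0 in all 3 CD31WT libraries and at 2.20, 0.474, 0.385 and 0.958 CPM in CD31DUX, at least 6.01-fold higher against the floor. Since FAP transcripts were also higher in the CD31DUX libraries and FAPs hold Gpr165, these values moved together, and the part of the one in the other was not tested.

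FAPs can also be set against endothelial cells of the same genotype, as a description only, since the genes were chosen on these values. St8sia6 in PDGWT was at 12.6% of its CD31WT level and Megf6 at 21.7%, above 13 of the 14 endothelial markers in the case of each gene. In PDGDUX they were at 0.281% and 0.170% of the CD31DUX level, below all 14 endothelial markers, which ran from 1.11% to 45.7% with a median of 1.82%.

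**Figure D2:**
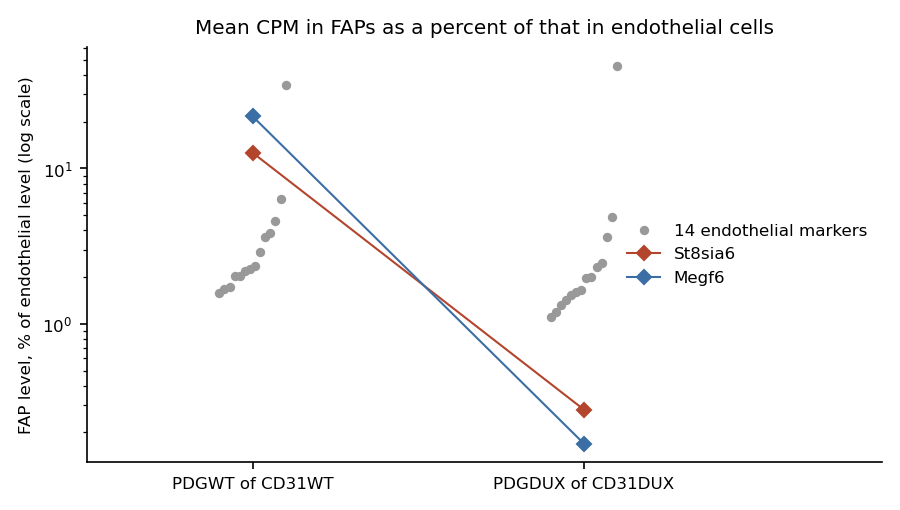
Mean CPM in FAPs as a percent of that in endothelial cells (log axis) for WT (left) and DUX4 (right), with the 14 endothelial markers as grey points and St8sia6 and Megf6 as diamonds. Both genes lie above all but 1 marker in WT and below every marker with DUX4.

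Some endothelial markers were themselves lower in the DUX4 FAP sort. Of the 14, 4 fell at an adjusted p under 0.05 by edgeR's quasi-likelihood test, 5 by DESeq2 and 2 by limma voom. Of all genes edgeR called 1.77% lower in FAPs. The median log2 difference of the 14 was -0.93, against -0.07 over all genes. Pecam1, which encodes CD31, fell from 44.8 to 21.3 CPM (log2 -1.07 ± 0.19, SE; adjusted p = 0.00488, edgeR). Of 9 markers of mural cells, the contractile cells around vessels, 3 fell by edgeR (4 by DESeq2, 2 by limma voom). The 3 were Des, Myh11 and Acta2. The 9 summed to 187 to 233 CPM in PDGWT and 110 to 162 CPM in PDGDUX. None of these endothelial and mural markers was at 0 in all libraries of either group. Of the 4 endothelial markers that fell by edgeR, Vwf, the clotting factor of vessel lining, had the largest log2 fall (-1.84, from 24.7 to 6.93 CPM). Tendon cell markers went the other way. Of 6, 2 rose by edgeR (3 by DESeq2, 1 by limma voom), namely Thbs4, a matrix protein of tendon (777 to 2325 CPM; adjusted p = 0.00012, edgeR), and Tnmd (9.59 to 26.1 CPM), with a summed level of 796 to 1107 CPM in PDGWT and 2344 to 2850 CPM in PDGDUX. The sums did not overlap for 7 satellite cell markers (123 to 147 against 149 to 259 CPM) or for 6 fat cell markers (85.8 to 206 against 44.8 to 64.1 CPM, with 2 at 0 in each group) either. The satellite cell list did not follow its sum. By edgeR 0 of the 7 rose and 1 fell, Chrdl2 (3.35 to 0.800 CPM), with a median log2 difference of -0.08, and by DESeq2 1 rose and 1 fell. Of the fat cell markers 3 were tested and 1 fell by edgeR, Fabp4 (125 to 48.7 CPM), which stood at 4449 CPM in CD31WT. The part of these markers in the values of the genes followed here was not tested.

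Whole muscle gave the test that the choice did not use, and all 5 genes passed the low-count filter there. At 2 weeks 1 of the 5 was called, St8sia6, and at 16 weeks 1 of the 5, Gpr165. Of the 15396 genes tested, 17.6% were called at 2 weeks and 26.6% at 16 weeks, so a single call among 5 genes is near the background at both times. For the difference between the 2 times 0 of the 5 were called by edgeR, DESeq2 or limma voom, beside 0.299% of all genes called by edgeR. With each tool 3 of the 5 had an unadjusted p under 0.05, as did 17.7% of all genes by edgeR, 18.4% by DESeq2 and 19.5% by limma voom. Whole-muscle and sorted libraries came from different kits and were scaled apart, so levels are compared only within each kind.

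St8sia6 fell in DUX4 muscle at 2 weeks. It was at 1.23, 2.82, 0.735, 2.64 and 2.55 CPM in WT.2Weeks (8 to 39 counts) and at 0.589, 0.655, 0.444, 0.928 and 0.484 CPM in IDUX.2Weeks (7 to 12 counts). The ranges overlapped through 1 WT library, and the means were 1.99 ± 0.95 CPM (SD, n = 5) and 0.620 ± 0.191 CPM (SD, n = 5). The log2 difference was -1.67 ± 0.45 (SE; adjusted p = 0.0165, edgeR's quasi-likelihood test with Benjamini-Hochberg adjustment), in a direction in which 6.47% of all genes were called. At 16 weeks the order of the means was the opposite, with 0.195, 1.48, 1.13 and 0.673 CPM in WT.16Weeks and 0.989, 1.37, 0.953 and 1.55 CPM in IDUX.16Weeks, but the difference of 0.46 ± 0.50 did not pass (adjusted p = 0.533, edgeR). The difference between the times, 2.13 ± 0.67, did not pass either (adjusted p = 0.155, edgeR).

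Endothelial cells held far more St8sia6 than FAPs, so vessel markers are given beside its fall at 2 weeks. The 14 endothelial markers summed to 702 to 1293 CPM in WT.2Weeks and 378 to 1054 CPM in IDUX.2Weeks. Of the 14 edgeR called 0, with 4 lower at an unadjusted p under 0.05, DESeq2 called 1 lower and limma voom called 8 lower. Their median log2 difference was -0.65, against -0.01 over all genes. Per 1000 CPM of these markers St8sia6 stood at 0.943 to 3.15 CPM in WT.2Weeks (median 2.04) and at 0.671 to 1.73 CPM in IDUX.2Weeks (median 0.881), with overlap. The part of the vessel markers in the fall of St8sia6 was not tested.

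Tenm2 and Megf6 did not pass in whole muscle at either time. Tenm2 was at 0.754 to 2.57 CPM in WT.2Weeks and 0.589 to 1.46 CPM in IDUX.2Weeks (log2 -0.48 ± 0.51; adjusted p = 0.565, edgeR), and at 0.130 to 1.68 and 0.762 to 2.48 CPM at 16 weeks (0.35 ± 0.57; adjusted p = 0.691, edgeR). So the transcript that was all but absent from DUX4 FAPs remained measurable in DUX4 muscle at a level whose range overlapped that of WT. Megf6 was at 0.676 to 1.32 CPM in WT.2Weeks and 0.179 to 0.851 CPM in IDUX.2Weeks (-0.67 ± 0.43; adjusted p = 0.308, edgeR). At 16 weeks it was at 0.130 to 0.841 and 0.646 to 1.07 CPM (0.87 ± 0.50; adjusted p = 0.214, edgeR). With 2 to 40 counts per library, differences of the size of these standard errors were not detectable.

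**Figure D3:**
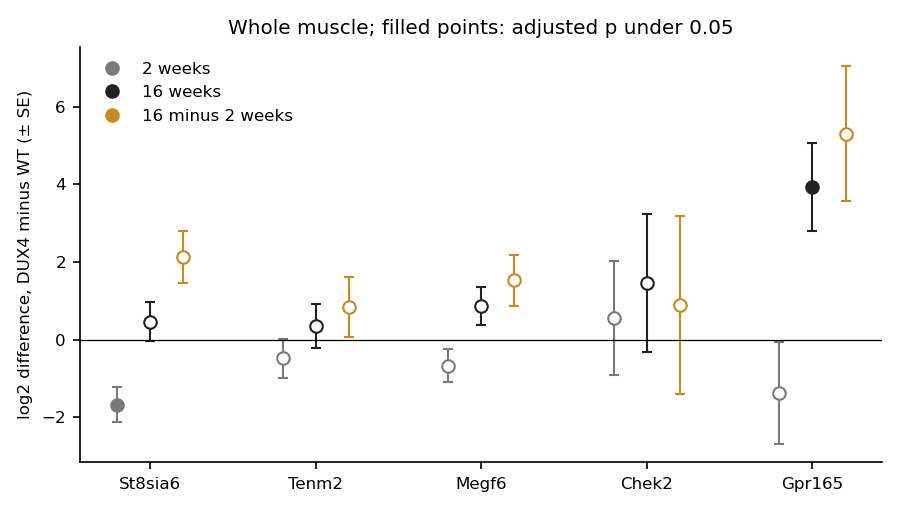
Log2 difference, DUX4 minus WT, in whole muscle (vertical axis, ± SE) for the 5 genes at 2 weeks, at 16 weeks and for the difference between the times, filled where the adjusted p was under 0.05. St8sia6 at 2 weeks (-1.67) and Gpr165 at 16 weeks (3.94) are the filled points.

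Gpr165 was called higher in DUX4 muscle at 16 weeks, and the call rested on 1 library. It was at 0.0651, 0.233, 0 and 1.35 CPM in WT.16Weeks and at 1.84, 0.457, 15.6 and 0.861 CPM in IDUX.16Weeks, with overlap. The log2 difference was 3.94 ± 1.14 (SE; adjusted p = 0.0169, edgeR), in a direction in which 14.1% of all genes were called. Without IDUX.16Weeks replicate 3, which holds 245 of the 307 counts of its group, it was 1.8 (adjusted p = 0.188, edgeR). With only the 16-week groups in the fit it was 3.97 (adjusted p = 0.0796, edgeR), and with Y-linked counts as a covariate it was 1.36 (adjusted p = 0.197, edgeR). In replicate 3 those Y-linked counts came to 70.4 CPM, of which 65.8 CPM were Uty, a gene that follows Gpr165 over these libraries, so the covariate carries much of the same pattern. FAPs hold Gpr165, and FAP markers were higher in the same comparison. The 15 FAP markers summed to 225 to 862 CPM in WT.16Weeks and 1102 to 2053 CPM in IDUX.16Weeks, without overlap, and 6 of them rose and 0 fell by edgeR (8 rose by DESeq2 and 8 by limma voom), with a median log2 difference of 0.90 beside 0.01 over all genes. The summed markers of tendon cells (42.6 to 82.6 against 203 to 378 CPM) and of fat cells (37.1 to 188 against 203 to 375 CPM) did not overlap either. The part of these cells in the level of Gpr165 was not tested.

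Other genes stood high in the same libraries. Uty, a Y-linked gene, was at 1.5, 0.699, 0.566 and 8.58 CPM in WT.16Weeks and at 8.71, 1.98, 65.8 and 4.18 CPM in IDUX.16Weeks. Pou1f1, a pituitary transcription factor, was at 0.456, 0.233, 0.170 and 5.38 CPM and at 4.99, 1.52, 35.5 and 1.94 CPM. Both genes put the 8 libraries in nearly the order that Gpr165 does, with replicate 3 of IDUX.16Weeks highest, and both were chosen for this after the values were seen. Ddx3y, another Y-linked gene, was at 0.762 CPM or less in all 8, and replicate 3 held counts in 23360 genes, the most of any library of its group. WT.16Weeks replicate 4 held 1.18 CPM of Xist, against 156 to 302 CPM in the other 7 libraries. What these genes share with Gpr165 in these libraries was not tested.

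**Figure D4:**
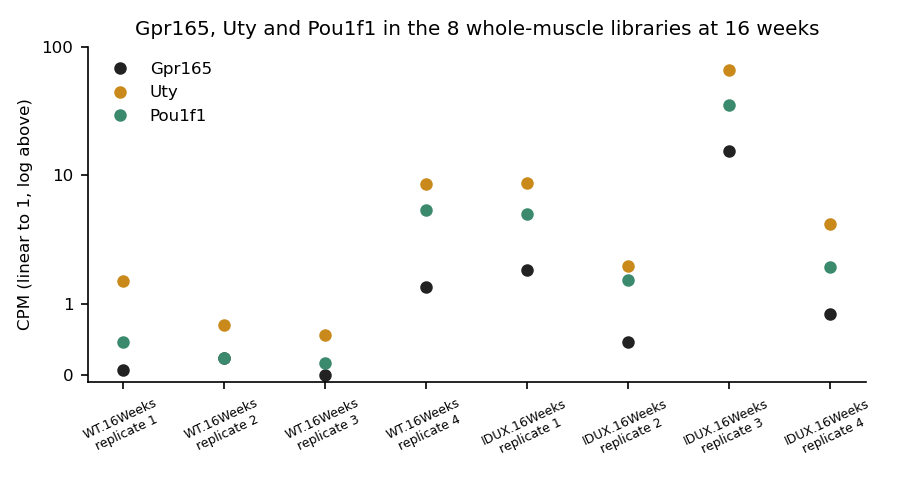
Gpr165, Uty and Pou1f1 in CPM (vertical axis, linear to 1 and logarithmic above) in each of the 8 whole-muscle libraries at 16 weeks (horizontal axis). All 3 are highest in IDUX.16Weeks replicate 3, at 15.6, 65.8 and 35.5 CPM.

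At 2 weeks Gpr165 was near the floor in both groups, at 0.0943 to 0.406 CPM in WT.2Weeks and 0 to 0.179 CPM in IDUX.2Weeks (13 and 6 counts in all). The difference did not pass (log2 -1.37 ± 1.31; adjusted p = 0.520, edgeR).

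The counts of Chek2 call for care, since they did not behave as counted reads. Of the 32 libraries 14 were at 0, none held between 0 and 10 counts, and the lowest value above 0 was 11.5. Of the 18 values above 0 none was whole to within 0.01, against 26 of 29 for Tenm2 and 6 of 27 for Gpr165. Of the Chek2 values, 4 lay between 24.1 and 24.2 in libraries of different depth. Unlike Chek2, Gpr165 did hold values between 0 and 10, in 15 libraries. In whole muscle Chek2 was at 0, 0, 2.20, 0 and 2.26 CPM in WT.2Weeks and 0, 0, 0, 3.64 and 2.97 CPM in IDUX.2Weeks (log2 0.56 ± 1.48; adjusted p = 0.840, edgeR). At 16 weeks it was at 0, 0, 1.25 and 0 CPM and at 0, 1.68, 1.52 and 1.03 CPM (1.45 ± 1.78; adjusted p = 0.584, edgeR).

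Part of what Chek2 transcripts hold is also found in other genes. Of the 3048 distinct 31-base stretches in its 6 annotated transcripts, 200 (6.56%) occur in transcripts of 2578 other genes. The same holds for none of those of Tenm2 and Megf6, for 85 of St8sia6 (all in the overlapping antisense gene Gm37126) and for 19 of Gpr165 (in 330 other genes). In the main coding transcript of Chek2 the shared bases, 129 of 2276, lie in the 3′ untranslated part alone. Sharing is not confined to that transcript. In another of 341 bases, not annotated as coding, 113 of the 31-base stretches (36.3%) occur in transcripts of 2156 other genes. Shared stretches cover 143 of the 185 bases of an exon of it that overlaps no exon of the main coding transcript. How many of the estimated Chek2 counts came from reads of such shared sequence cannot be read from the deposited tables, so its loss in DUX4 FAPs is less certain than that of Tenm2, St8sia6 and Megf6. For Gpr165 that part of the counts cannot be read from them either.

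**Figure D5:**
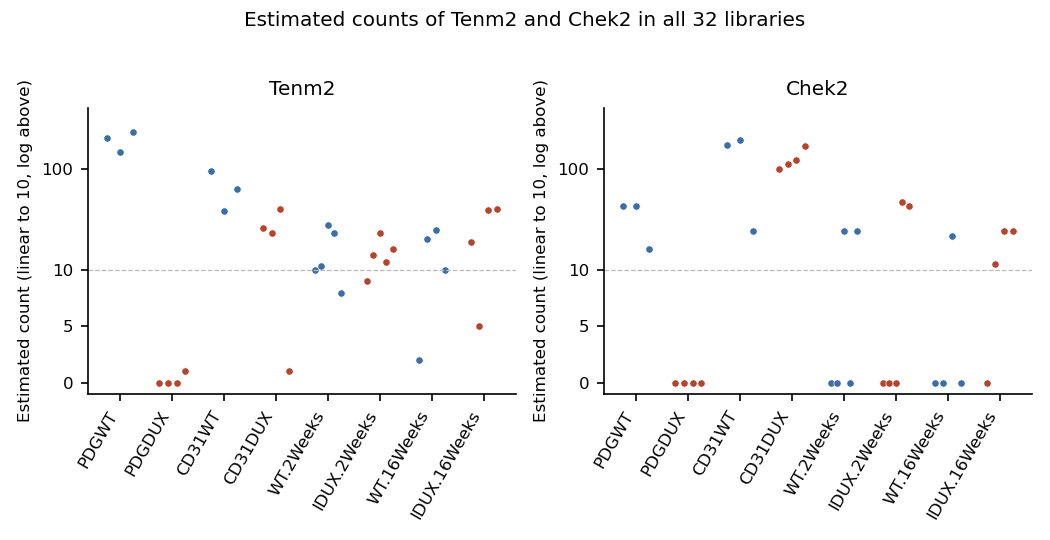
Estimated counts of Tenm2 (left) and Chek2 (right) in all 32 libraries (vertical axes, linear to 10 and logarithmic above; the dashed line is at 10), blue for WT and red for DUX4. Tenm2 takes values between 0 and 10, and Chek2 takes none, with 14 libraries at 0.

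Among other genes of these families and pathways, drawn up as lists with earlier results known, few were called in FAPs. Among the alpha-2,8-sialyltransferases, St8sia2 was at 2.29 ± 0.60 CPM in PDGWT (SD, n = 3) and 4.92 ± 1.40 CPM in PDGDUX (SD, n = 4), while St8sia3 and St8sia5 were at 0 in both. Per kilobase of exon, the mean of St8sia6 in PDGWT was 0.841 CPM and that of St8sia2 0.424 CPM, and in PDGDUX they were 0.0154 and 0.914 CPM. Of 16 tested sialyltransferases other than St8sia6, 1 rose in FAPs by edgeR's quasi-likelihood test, St6galnac4 (11.2 to 22.7 CPM; log2 1.02 ± 0.24; adjusted p = 0.0277). None fell by edgeR, with 4 lower at an unadjusted p under 0.05, and DESeq2 and limma voom each called 1 lower. Their median log2 difference was 0.07, beside -0.07 over all genes, of which 3% were called in FAPs. Of 12 tested genes of sialic acid supply and removal, 1 fell in FAPs by edgeR and by DESeq2, and 0 by limma voom. It was the sialidase Neu2 (1.03 to 0.0929 CPM), whose PDGDUX mean lay under the floor of those libraries (0.257 to 0.321 CPM). Neu2 fell in endothelial cells too (16.6 to 1.70 CPM, log2 -3.28 ± 0.61, adjusted p = 0.00382, edgeR).

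In whole muscle, where edgeR called 17.6% of all genes at 2 weeks and 26.6% at 16 weeks, the same family moved in both directions. At 2 weeks 3 of 15 tested sialyltransferases other than St8sia6 rose and 4 fell, with a median log2 difference of -0.26. St8sia2, which builds polysialic acid, rose from 0.575 to 5.94 CPM (log2 3.31 ± 0.75; adjusted p = 0.00566, edgeR). St3gal2 fell from 72.0 to 36.4 CPM (-0.98 ± 0.14; adjusted p = 8.82e-05, edgeR). At 16 weeks 3 rose and 3 fell with a median of 0.06, among them St8sia2 (0.433 to 9.99 CPM), St8sia4 (3.61 to 12.7 CPM) and again St3gal2 (71.8 to 48.6 CPM). Nans and Cmas, which make and activate sialic acid, were the 2 of 11 supply genes that rose at each time, Nans from 12.2 to 22.2 CPM and Cmas from 22.4 to 32.1 CPM at 2 weeks. The median of those 11 genes was -0.15 at 2 weeks and -0.07 at 16 weeks.

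Of the teneurins, Tenm3 was at 28.0 ± 13.2 CPM in PDGWT and 24.5 ± 10.2 CPM in PDGDUX (SD, n = 3 and 4), and it exceeded Tenm2 in WT FAPs per kilobase of exon as well (2.74 against 1.02 CPM). Tenm4 was at 1.08 ± 0.87 and 7.02 ± 5.60 CPM. Tenm3 was called in FAPs by none of the 3 tools, and Tenm4 was called higher by DESeq2 (log2 2.74; adjusted p = 0.0159) but not by edgeR or limma voom. Of 10 tested teneurins and partners other than Tenm2, 2 rose in FAPs by edgeR (3 by DESeq2, 2 by limma voom), with a median log2 difference of 0.23, and 0 fell (1 at an unadjusted p under 0.05). DESeq2 and limma voom each called Flrt1 lower. The 2 were Flrt2, a membrane protein that binds latrophilins (51.8 to 128 CPM; 1.31 ± 0.27; adjusted p = 0.0136, edgeR), and the latrophilin Adgrl1 (6.18 to 15.0 CPM; 1.28 ± 0.30; adjusted p = 0.0277, edgeR). Flrt2 rose in whole muscle as well, from 9.39 to 40.3 CPM at 2 weeks and from 10.4 to 33.7 CPM at 16 weeks. At 16 weeks Tenm4 rose from 1.41 to 7.52 CPM and Tenm3 fell from 25.1 to 9.52 CPM (-1.40 ± 0.28; adjusted p = 0.00176, edgeR). In all, 2 of 9 rose and 1 fell at 2 weeks (median 0.02), and 3 rose and 1 fell at 16 weeks (median 0.63). The shares of all genes called by edgeR at these times were 17.6% and 26.6%. In FAPs that share was 3%.

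Among genes with EGF-like repeats, 3 of 17 tested fell in FAPs by edgeR (5 by DESeq2, 2 by limma voom). Of all genes edgeR called 1.77% lower in FAPs. The median log2 difference of the 17 was -0.21. None of the 17 rose with any of the 3 tools, at an unadjusted p under 0.05 either. Megf10, a receptor for engulfment that is also known from satellite cells, fell from 3.07 to 0.0922 CPM (-4.92 ± 0.94; adjusted p = 0.00832, edgeR), in counts that were at 0 in 3 of the 4 PDGDUX libraries. Scube1, a secreted protein with EGF-like repeats, fell from 21.3 to 2.60 CPM (-3.04 ± 0.52; adjusted p = 0.00388, edgeR), and Egfl7, which is also one of the endothelial markers that fell in this sort, from 7.63 to 3.02 CPM. The paralogue Megf9 was at 23.0 ± 1.5 CPM in PDGWT (SD, n = 3) and at 19.8 ± 4.3 CPM in PDGDUX (SD, n = 4). Beside 17.6% and 26.6% of all genes called by edgeR at 2 and 16 weeks stand the counts of this list. In whole muscle 1 of 15 rose and 1 fell at 2 weeks (median -0.10), and 5 rose and 1 fell at 16 weeks (median 0.20). Megf10 rose there at 16 weeks, from 2.11 to 5.60 CPM (1.42 ± 0.38; adjusted p = 0.0116, edgeR).

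Of 28 tested genes of the DNA damage checkpoint other than Chek2, edgeR called 0 in FAPs, where it called 3% of all genes. The median log2 difference of the 28 was -0.25. At an unadjusted p under 0.05, 1 was higher and 3 were lower. DESeq2 called 1 lower and limma voom called 0. Chek1, the kinase that answers to stalled replication, was at 2.45 CPM in PDGWT and 1.60 CPM in PDGDUX. In endothelial cells Cdkn1a, the p53 target that halts the cell cycle, was the 1 gene of 28 called by edgeR (2030 to 1035 CPM; -0.97 ± 0.16; adjusted p = 0.00172, edgeR). Of all genes edgeR called 5.07% in endothelial cells. In whole muscle 4 of 26 checkpoint genes rose and 2 fell at 2 weeks (median 0.09), and 4 rose and 3 fell at 16 weeks (median 0.13). Over all genes edgeR called 17.6% at 2 weeks and 26.6% at 16 weeks in either direction, so these counts are near the background. Mre11a, a subunit of the complex that senses DNA breaks, rose from 13.3 to 113 CPM at 2 weeks (3.09 ± 0.23; adjusted p = 2.38e-07, edgeR) and from 16.4 to 102 CPM at 16 weeks. Trp53bp1, which marks breaks for repair, rose from 19.4 to 52.0 CPM and from 20.01 to 39.9 CPM. Nbn, of the same complex as Mre11a, fell at 16 weeks, from 24.3 to 15.3 CPM (log2 -0.67 ± 0.14, adjusted p = 0.00287, edgeR). Atm, the kinase upstream of Chek2, fell at 16 weeks, from 10.2 to 6.52 CPM (-0.64 ± 0.18; adjusted p = 0.0141, edgeR).

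Of 22 tested orphan receptors other than Gpr165, edgeR called 0 in FAPs, where it called 3% of all genes. The median log2 difference of the 22 was 0.01. At an unadjusted p under 0.05, 2 were higher and 2 lower, DESeq2 called 1 higher and limma voom called 1 lower. In endothelial cells, where 5.07% of all genes were called, 3 rose by edgeR (1 by limma voom), with a median of 0.53. Gpr153 rose from 14.4 to 52.6 CPM (1.87 ± 0.30; adjusted p = 0.00127, edgeR). Gpr85 shared the pattern of Gpr165, at 0 in every CD31WT library and at a mean of 0.866 CPM in CD31DUX. In whole muscle 0 of 11 passed at 2 weeks with any of the 3 tools, at an unadjusted p under 0.05 either (median -0.08), and by edgeR 2 rose and 1 fell at 16 weeks (median 0.30). By the same test 17.6% of all genes were called at 2 weeks and 26.6% at 16 weeks.

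The 5 genes did not follow one course over the 14 sorted libraries. On log2(CPM + 1), Pearson's r was 0.93 between St8sia6 and Megf6, 0.90 between St8sia6 and Chek2 and 0.90 between Megf6 and Chek2, all 3 of which had higher means in endothelial cells than in FAPs of the same genotype, though for Chek2 the WT groups overlapped. Tenm2, the only one of the 4 lost genes that was higher in WT FAPs than in WT endothelial cells, stood at 0.36, 0.17 and 0.33 with them. These values describe libraries that share groups, kits and depths, and carry no test. The genes closest to St8sia6 were Des (0.99), Palmd (0.99), Hrh1 (0.98) and Pcp4l1 (0.98), and none of these 4 was at 0 in PDGDUX on average: Palmd was at 10.1 CPM in PDGWT and 1.97 CPM in PDGDUX. Closest to Tenm2 were Glul (0.94), Mpzl2 (0.90), Lef1 (0.88) and Scube1 (0.86), of which Lef1, a transcription factor of Wnt signalling, was at 6.05 CPM in PDGWT and 0.222 CPM in PDGDUX. Closest to Megf6 were Aplnr (0.98), Clca3a1 (0.97), Ctnnal1 (0.97) and Cdk6 (0.96). For Chek2 they were Arid4a, Tbpl1, Sugp1 and Abr (0.93 to 0.94), and for Gpr165 Trappc9, Tbc1d19, Nsmaf and Tex261 (0.93 to 0.94), none of which was near 0 in any of the 4 groups.

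Over the groups of sorted cells the order of mean levels was CD31WT, CD31DUX, PDGWT and PDGDUX for St8sia6, in which CD31WT and CD31DUX overlapped and the other neighbours did not. For Tenm2 it was PDGWT, CD31WT, CD31DUX and PDGDUX, of which CD31DUX (0.0435 to 1.92 CPM) and PDGDUX (0 to 0.0857 CPM) overlapped through 1 CD31DUX library. For Megf6 it was CD31DUX, CD31WT, PDGWT and PDGDUX, with no overlap between neighbours. For Chek2 it was CD31WT, CD31DUX, PDGWT and PDGDUX, in which CD31WT overlapped CD31DUX and, through 1 library at 1.42 CPM, PDGWT. For Gpr165 it was PDGWT, PDGDUX, CD31DUX and CD31WT, in which PDGWT overlapped PDGDUX and PDGDUX overlapped CD31DUX. PDGDUX was thus the lowest of the sorted groups for the 4 lost genes, and CD31WT for Gpr165.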

How the data were processed

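The submitters' processing notes name CASAVA 1.8, Salmon 0.6.0 and the genome mm10. The authors deposited 1 table of expected counts per Ensembl gene for each of 32 libraries, and the annotation release is not given in the sources used here. Per the labels, whole-muscle libraries began with 500 ng of RNA and sorted cells with a low-input amplification kit, and reads were paired and 50 bases long. Counts were rounded. Symbols and gene models came from GENCODE (GRCm38), which named 42459 of the 43035 genes, and promoters from RefSeq. The 18 whole-muscle and 14 sorted libraries were fitted apart with edgeR 4.0.16 in R 4.3.3 (filterByExpr at a minimum of 10 counts, TMM, robust quasi-likelihood test, Benjamini-Hochberg over all genes; a call is an adjusted p under 0.05). Each SE was taken from the log2 change and its F statistic. The procedure was tested on simulated data. A count of 0 allowed 3 counts, 0.129 to 0.505 CPM by library. The members, the 17 gene lists (247 genes, 2 unmatched) and the tests were chosen with earlier results of these data known. Named genes were the members, their paralogues and nearest neighbours, up to 4 called genes of each list by p and the 4 genes closest to each member by Pearson's r, with a part printed. Alternatives were DESeq2 1.42.0, limma 3.58.1 voom, other size factors, filters, covariates and samples. Some items are not reported here.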

Additional observations from a re-analysis of the deposited data

Results flagged for a closer look

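In groups of 4 or 5 libraries, a library was singled out by its gap to the nearest other library. The gap had to take up more of the range of the group than Dixon's 95% limit allows. For normally distributed values this happens by chance in about 1 in 20 groups. A group with 1 library above 0 and the rest at 0 is always flagged, at any level, so that rate does not hold for it. Of 29 groups examined 4 held a library singled out in this way. Tenm2 in PDGDUX replicate 4 was at 0.0857 CPM and Megf6 in PDGDUX replicate 2 at 0.214 CPM, with the other 3 libraries at 0, so these rest on 1 and 2 counts. Chek2 in WT.16Weeks replicate 3 was at 1.25 CPM with the others at 0. Gpr165 in IDUX.16Weeks replicate 3 was at 15.6 CPM, against 1.84 CPM in the next library.

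Megf6 moved in opposite directions in the sorted cells, with all DUX4 libraries below all WT libraries in FAPs (log2 -5.48 in the fit) and all above them in endothelial cells (log2 1.47). The value in FAPs rests on 2 counts in PDGDUX replicate 2, without which it was -8.36, and leaving out each of the other FAP libraries in turn gave -5.83 to -4.85. The difference was not tested, because the gene was chosen on it.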

How the results depend on the processing

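No paired analysis was possible because the replicates were numbered by accession. St8sia6 at 2 weeks kept its call in all 17 refits that tested it (log2 -1.88 to -1.45, adjusted p 0.0029 to 0.0432 over edgeR, DESeq2 and limma voom). The stricter filter left 0 members called at 2 and at 16 weeks, since it removed St8sia6 and Gpr165. Gpr165 at 16 weeks gave 1.36 with the Y-linked covariate and 3.97 with only the groups compared, neither called, so 0 members were; leaving out 1 library gave 1.8 to 5.57 and 0 to 1 members called. For the cases below the cause was not tested. Chek2 reversed at 2 weeks under voom (-1.54) and with a term for replicates 4 and 5 (-0.93), and over left-out libraries ran from -0.27 to 1.26. In endothelial cells it reversed under voom (0.20) and ran from -0.67 to 0.27. Tenm2 at 16 weeks reversed under voom (-0.12) and ran from -0.051 to 0.54. Genes called at 2 weeks were 4328 with voom and 1756 (without IDUX.2Weeks replicate 2) to 3607 without 1 library. For the difference between the times they were 466 with DESeq2, 265 with voom, 19 unfiltered, 11 with the covariate, 137 with the term for replicates 4 and 5, and 8 (without IDUX.16Weeks replicate 3) to 57 without 1 library. In FAPs they were 1038 with DESeq2 and 291 to 555 without 1 library (291 and 326 without PDGWT replicates 1 and 2, 339 without PDGDUX replicate 4). In endothelial cells they were 1460 with DESeq2, 441 with the covariate and 520 (without CD31WT replicate 3) to 1091 without 1 library, and for FAPs against endothelial cells 824, 251 and 238 to 541. In whole muscle the members had few counts, which limits what could be detected.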
